A study of Mus musculus with 8 samples.

Results

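Described here are 5 mature miRNAs of the miR-26, miR-101 and miR-139 families in mouse CD8+ T cells: mmu-miR-26a-5p, mmu-miR-26b-5p, mmu-miR-101a-3p, mmu-miR-101b-3p and mmu-miR-139-5p, written below without the species prefix. They were taken by name from the count table, with all rows of one name summed, and are 5 of its 1978 mature names. All 5 had enough counts to be tested, as did 382 names in all. Small RNA of CD8+ T cells sorted from mouse spleen on CD8, CD4, CD44 and CD122 was sequenced in 8 libraries. The 4 groups of 2 libraries were mCre MP, WT MP, mCre TN and WT TN, so that each genotype, mCre or WT, was sorted into the same pair of subsets, MP and TN. The design text writes VM where the titles write MP and Cre- where the titles write mCre. TN and VM are common short forms for true naive and virtual memory T cells, the second being cells with a memory phenotype acquired without foreign antigen, but the labels leave all of these unexplained. miR-29 and Cre, a recombinase that deletes marked DNA, are both named in the title of the series. The sources used here name neither the deleted sequence nor what drives Cre, and give no strain or age per library; the sorting protocol covers adult and neonatal spleens together.

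A miRNA guides an Argonaute protein to messenger RNAs that pair with its seed, bases 2 to 8 from its 5′ end, and lowers their translation and stability. In mice and humans the miR-26 hairpins lie within genes of small C-terminal domain phosphatases (Ctdsp1, Ctdsp2 and Ctdspl), and miR-26 and miR-101 are both known repressors of Ezh2, the histone methyltransferase of the Polycomb complex. miR-101 is also known to repress Icos, a costimulatory receptor, in mouse T cells. miR-139 lies in an intron of Pde2a, and in mouse CD8+ T cells it is known as an miRNA that is lost on activation and that represses Eomes and perforin.

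The mature sequences are shown because their seeds decide which members can share targets, and because near-identical copies limit how counts can be told apart. They are RefSeq sequences for the GRCm38.p6 build, 5′ to 3′, with the seed in capitals.
miR-26a-5p: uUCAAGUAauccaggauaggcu
miR-26b-5p: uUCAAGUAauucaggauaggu
miR-101a-3p: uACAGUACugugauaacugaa
miR-101b-3p: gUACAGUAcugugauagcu
miR-139-5p: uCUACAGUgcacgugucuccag
miR-26a-5p and miR-26b-5p share 1 seed, which no other name in the table with a RefSeq sequence has. They are identical at 19 of 21 aligned bases and differ by C11U and C21U, counted from the 5′ end of miR-26a-5p. miR-101a-3p and miR-101b-3p are identical at 17 of 18 aligned bases and differ by A16G, counted from the 5′ end of miR-101a-3p. RefSeq lists miR-101b-3p with a start 1 base earlier, so that the letters at its bases 2 to 8 are those of miR-101a-3p shifted by 1. Another name, miR-101c, has 19 bases that all lie inside miR-101a-3p. It had 1 count in all after rounding, in WT TN replicate 1. The seed of miR-139-5p was held by no other name in the table with a RefSeq sequence.

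The members come from 6 hairpins on 6 chromosomes (GRCm38 coordinates, annotation of GENCODE M21). miR-26a-5p has 2 sources with the same mature sequence, Mir26a-1 at chr9:119031796-119031885 (plus strand) in an intron of Ctdspl, and Mir26a-2 at chr10:126995530-126995613 (plus strand) in an exon of at least 1 annotated transcript of Ctdsp2. Mir26b lies at chr1:74394310-74394394 (plus strand) in an intron of Ctdsp1. Mir101a lies at chr4:101346945-101347027 (minus strand) in an exon of the lincRNA E130102H24Rik, and Mir101b at chr19:29135279-29135375 (plus strand) in an intron of Rcl1. Mir139 lies at chr7:101475376-101475443 (plus strand) in introns of Pde2a and the overlapping Gm45837. The Mir26b and Mir139 hairpins are printed because the results below set each guide strand against the partner strand cut from the same hairpin; the capitals mark the 5p arm and then the 3p arm.
Mir26b: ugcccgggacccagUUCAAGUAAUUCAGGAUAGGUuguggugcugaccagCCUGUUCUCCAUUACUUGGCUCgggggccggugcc
Mir139: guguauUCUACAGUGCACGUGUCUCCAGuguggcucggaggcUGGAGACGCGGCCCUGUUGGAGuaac
The deposited counts of miR-26a-5p were divided evenly over its 2 rows, 50.0% to each in every library, so the share of each hairpin cannot be told apart.

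Library totals ran from 1936600 to 5230975 counts. As a check of the labels, miR-29a-3p held 0.0735% and 0.126% of counts in the mCre MP libraries and 0.349% and 1.09% in the WT MP libraries (replicates 1 and 2), but 0.162% and 1.52% in the libraries labelled mCre TN, and 0.340% and 0.0735% in those labelled WT TN. The library labelled mCre TN replicate 2 thus held the highest miR-29a-3p of all 8, and the library labelled WT TN replicate 2 was within rounding of the lowest, against the direction in MP. Whether these 2 labels were exchanged was not tested, and the libraries were kept under their labels. Values without both are given beside the log2 changes of members that use them; leaving out both was chosen after the data were seen. T lymphocyte miRNAs (4 of 4 detected, led by miR-150-5p) summed to 40085 to 104236 CPM (counts scaled to a common library total, here without TMM factors) in MP and 47054 to 173810 CPM in TN libraries. Both myeloid markers together gave at most 13.7 CPM, with miR-223-3p at 0 in at least 1 library. The 3 erythroid markers gave 74.0 to 138 CPM in MP and 43.2 to 92.4 CPM in TN libraries, almost all of it miR-486a-5p, and the defining miR-451a reached 10.01 CPM. The 4 endothelial and stromal markers gave 34.1 to 109 CPM in MP and 22.2 to 59.3 CPM in TN libraries. The 5 liver, muscle and neural markers stayed at or under 38.8 CPM in both subsets. The 6 epithelial markers, mostly miR-200 family members and miR-203-3p, gave 1984 to 4243 CPM in MP and 1282 to 3904 CPM in TN libraries, with miR-205-5p at 0 in at least 1 library. The part of these cells in the member values was not tested.

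Together the 5 members made up 2.13% and 2.75% of counts in the mCre MP libraries, 6.10% and 7.13% in WT MP, 4.73% and 8.14% in mCre TN, and 6.84% and 2.43% in WT TN. Most of this was the miR-26 family, which ranged from 1.44% to 7.83% of counts, while miR-101a-3p and miR-101b-3p together ranged from 0.126% to 1.34%. By mean count, miR-26a-5p ranked 9 and miR-26b-5p 11 among all names, ahead of miR-139-5p at 29, miR-101b-3p at 37 and miR-101a-3p at 49. Over the 8 libraries the mean levels stood in the same order, at 23005 ± 6996 CPM for miR-26a-5p, 18629 ± 17005 CPM for miR-26b-5p, 4066 ± 2579 CPM for miR-139-5p, 2042 ± 1628 CPM for miR-101b-3p and 1365 ± 1467 CPM for miR-101a-3p (SD, n = 8; CPM after TMM scaling, here and below). Each difference between neighbours in this order was smaller than the larger of the 2 SDs. Ligation and amplification differ between sequences, so these levels rank reads, not molecules.

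**Figure D1:**
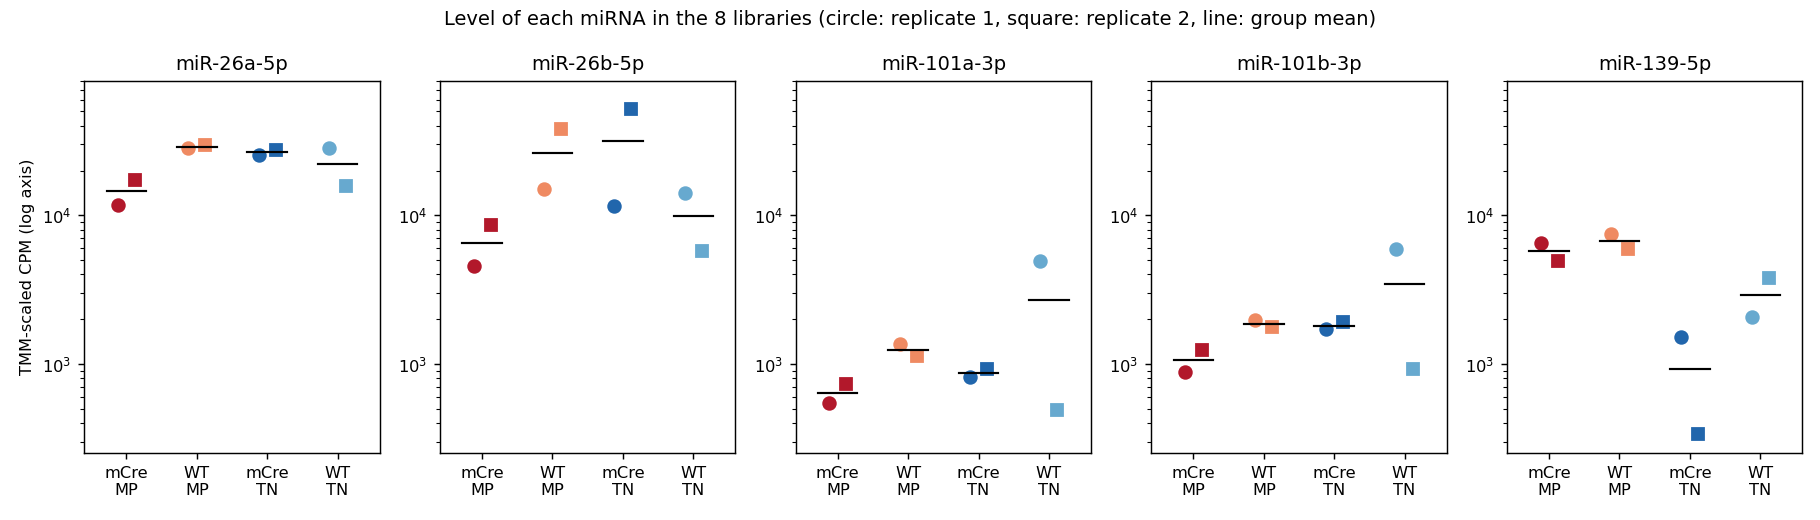
Level of each member in every library, as CPM after TMM scaling on a log axis, with the groups in the order mCre MP, WT MP, mCre TN and WT TN and 1 point per library. miR-139-5p is higher in all 4 MP libraries than in any TN library, miR-26b-5p stands out in WT MP replicate 2 and in the library labelled mCre TN replicate 2, and both miR-101 forms stand out in WT TN replicate 1.

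Over both genotypes, miR-139-5p was the member that differed most between the subsets. It measured 6489.5 and 4925 CPM in the mCre MP libraries and 7519 and 5925 CPM in the WT MP libraries, against 1507 and 337 CPM in the libraries labelled mCre TN and 2058 and 3768 CPM in those labelled WT TN. The 4 MP libraries did not overlap with the 4 TN libraries, and they lay within 1.53-fold of each other, while the TN libraries spread over 11.2-fold. The means were 6215 ± 1084 CPM in MP and 1918 ± 1427 CPM in TN (SD, n = 4 each). The log2 change was 1.92 ± 0.58 (SE), a 3.78-fold higher level in MP libraries, with adjusted p = 0.195 (quasi-likelihood test of edgeR, Benjamini-Hochberg adjustment over 382 miRNAs), so it did not pass the threshold of 0.05. Of all tested miRNAs, 2.36% passed in this comparison and 6.81% were higher in MP without overlap; miR-139-5p ranked 20 by p. In bulk sorted cells, fewer cells that carry an miRNA and less of it per cell cannot be told apart.

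The call for miR-139-5p depended on the test and on the TN replicate 2 libraries. With DESeq2 the log2 change over both genotypes was 1.83 with adjusted p = 0.0353, where 7.33% of all tested miRNAs passed. With edgeR without a filter on low counts it was 1.84 with adjusted p = 0.0199, where 2.17% of 877 passed. Without the library labelled WT TN replicate 2 it was 2.15 (adjusted p = 0.0472, edgeR), where 9.38% of 437 passed. Without both TN replicate 2 libraries it was 1.68 ± 0.37 (adjusted p = 0.0117, edgeR), where 11.3% of 433 passed. The direction held under all 15 alternatives, whose adjusted p ran from 0.0117 to 0.552, and 4 of them passed. The libraries labelled TN replicate 2 are the ones at both ends of the TN range, at 337 and 3768 CPM.

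The partner strand miR-139-3p, cut from the other arm of the same hairpin, was also higher in MP on average. It measured 1800.2 and 1199 CPM in mCre MP and 823 and 1031 CPM in WT MP, against 251 and 240.2 CPM in the libraries labelled mCre TN and 246 and 966 CPM in those labelled WT TN. The library labelled WT TN replicate 2 reached into the MP range, and the other 3 TN libraries lay below all 4 MP libraries. The log2 change was 1.61 ± 0.63 (adjusted p = 0.314, edgeR), against 2.25 without that library and 2.09 without both TN replicate 2 libraries. Over its 15 alternatives the adjusted p ran from 0.00472 to 0.689. Of these, 2 passed, both without the library labelled WT TN replicate 2.

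Within each genotype, miR-139-5p was higher in MP than in TN without overlap. Of all tested miRNAs, 29.6% in mCre and 26.2% in WT were also higher in MP without overlap. In mCre cells miR-139-5p averaged 5707 ± 1106 CPM in MP and 922 ± 827 CPM in TN (SD, n = 2 each). Its log2 change there was 2.63 ± 0.76 (adjusted p = 0.181, edgeR). In WT cells it averaged 6722 ± 1127 CPM in MP and 2913 ± 1209 CPM in TN, a log2 change of 1.21 ± 0.72 (adjusted p = 0.669). The difference between these changes was 1.42 ± 1.01 (adjusted p = 0.508), so a larger change in mCre was not shown. With both TN replicate 2 libraries left out that difference was 0.15 ± 0.65, and the change in WT was 1.60 ± 0.50 (adjusted p = 0.0816, edgeR). In mCre the change was 2.67 with DESeq2 (adjusted p = 0.00953), where 11.5% of all tested miRNAs passed, and 2.46 without the filter (adjusted p = 0.0344, edgeR), where 2.74% passed. It was 2.51 without WT TN replicate 1 (adjusted p = 0.0451, edgeR), where 12.9% passed, and 1.75 without both TN replicate 2 libraries (adjusted p = 0.0499, edgeR), where 6.93% passed. Over its 15 alternatives the adjusted p ran from 0.00953 to 0.615, and with 1 library left out the log2 change ran from 1.76 to 4.02.

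Between genotypes, miR-139-5p levels overlapped in MP, with 5707 ± 1106 CPM in mCre and 6722 ± 1127 CPM in WT (log2 change -0.24 ± 0.71, adjusted p = 0.891, edgeR). In TN both libraries labelled mCre lay below both labelled WT, at 922 ± 827 CPM against 2913 ± 1209 CPM, a log2 change of -1.66 ± 0.73 (adjusted p = 0.957, edgeR), or -0.46 ± 0.54 with both replicate 2 libraries left out. It was the only member without overlap in that comparison, in which 6.81% of all tested miRNAs were lower in mCre without overlap. No tested miRNA passed there with edgeR or DESeq2, while 12 (3.14%) in edgeR and 24 in DESeq2 had an unadjusted p under 0.05.

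**Figure D2:**
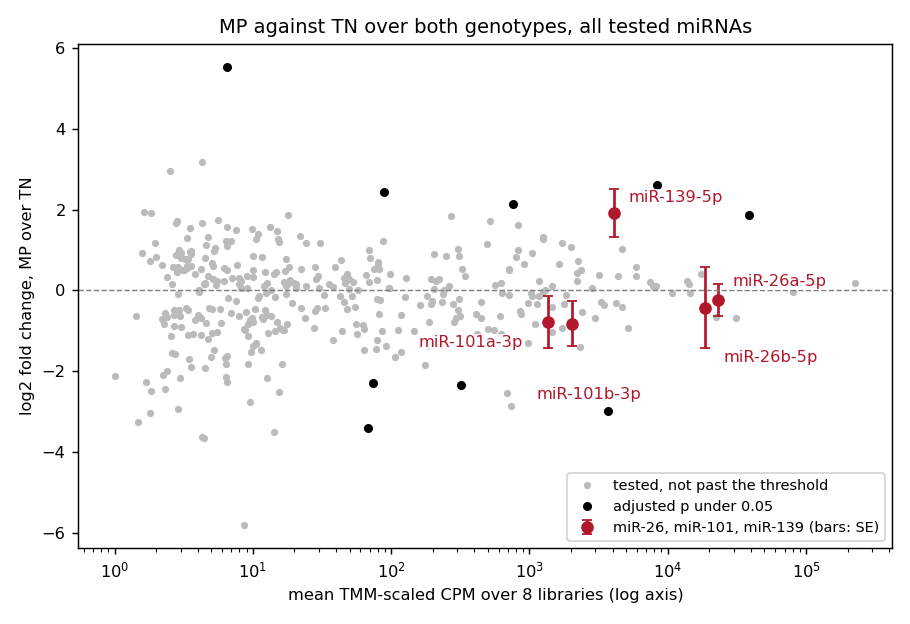
MP against TN over both genotypes for all 382 tested miRNAs, as log2 fold change (MP over TN) against mean CPM on a log axis. Red points with bars give the 5 members with their SE and black points the 9 miRNAs past an adjusted p of 0.05 with edgeR. miR-139-5p sits at 1.92 and the other 4 members between -0.82 and -0.24.

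miR-26a-5p was the steadiest member. It measured 11714 and 17287 CPM in mCre MP, 28509 and 29494 CPM in WT MP, 25546 and 27418 CPM in the libraries labelled mCre TN, and 28448 and 15626 CPM in those labelled WT TN. Of the 8 libraries, 5 thus lay between 25546 and 29494 CPM, and both mCre MP libraries and the one labelled WT TN replicate 2 were lower. MP and TN overlapped, with means of 21751 ± 8685 CPM in MP and 24259 ± 5880 CPM in TN (SD, n = 4 each) and a log2 change of -0.24 ± 0.39 (adjusted p = 0.835, edgeR). In mCre cells MP lay below TN without overlap, at 14500.1 ± 3941 CPM against 26482 ± 1324 CPM (SD, n = 2 each; log2 change -0.87 ± 0.44, adjusted p = 0.262), and the log2 change was -0.95 ± 0.44 without both TN replicate 2 libraries. In WT cells MP lay above TN without overlap, at 29002 ± 696 CPM against 22037 ± 9066 CPM (0.40 ± 0.43, adjusted p = 0.805, edgeR). By share of counts, without TMM factors, the 2 groups overlapped, with 3.51% in WT TN replicate 1 against 3.20% and 2.76% in WT MP. Of all tested miRNAs, 35.6% were lower in MP in mCre and 26.2% higher in MP in WT without overlap. That order in WT rests on the library labelled WT TN replicate 2, since the log2 change was -0.062 without it and -0.088 without both TN replicate 2 libraries. The difference between the changes was -1.27 ± 0.61 (adjusted p = 0.371); it was -1.89 with adjusted p = 0.0385 without WT TN replicate 1, where 15.6% of 435 passed. That was 1 of 15 alternatives, whose adjusted p ran from 0.0385 to 0.835; without both TN replicate 2 libraries it was -0.86 ± 0.65. Between genotypes in TN, miR-26a-5p overlapped, at 26482 ± 1324 CPM in mCre and 22037 ± 9066 CPM in WT (0.27 ± 0.43, adjusted p = 0.957, edgeR); the log2 change was -0.11 without the library labelled WT TN replicate 2 and -0.17 without both TN replicate 2 libraries.

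miR-26b-5p, which shares its seed with miR-26a-5p, varied far more. It measured 4553 and 8550.2 CPM in mCre MP, 14942 and 37811 CPM in WT MP, 11535 and 51872 CPM in the libraries labelled mCre TN, and 14051 and 5721 CPM in those labelled WT TN. The highest library was 11.4-fold above the lowest, against 2.52-fold for miR-26a-5p. WT MP replicate 2 and the library labelled mCre TN replicate 2 stood above the other 6, each the only such library of its group. MP and TN overlapped, at 16464 ± 14860 CPM in MP and 20795 ± 21010.1 CPM in TN (SD, n = 4 each; log2 change -0.43 ± 1.01, adjusted p = 0.880, edgeR); the log2 change was 0.31 without the library labelled mCre TN replicate 2 and -0.17 without both TN replicate 2 libraries.

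The 2 libraries with the most miR-26b-5p were also the 2 with the most miR-29a-3p. miR-29a-3p measured 833 and 1498 CPM in mCre MP, 3105 and 11656 CPM in WT MP, 1409 and 15390 CPM in the libraries labelled mCre TN, and 2752 and 802 CPM in those labelled WT TN. Across the libraries, miR-26b-5p was most like miR-361-5p, miR-342-3p and miR-29b-3p, with miR-29a-3p next. The measure was the root-mean-square difference of log2 CPM after each miRNA's own mean was removed, and was 0.39, 0.42, 0.43 and 0.44 for these 4, against a median of 1.29 over the 374 miRNAs compared. It describes the 8 libraries, which share depth and preparation between miRNAs, and carries no test.

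The partner strand of miR-26b-5p did not stand out in those 2 libraries. miR-26b-3p had 2 and 12 counts in mCre MP, 49 and 41 in WT MP, 65 and 19 in the libraries labelled mCre TN, and 38 and 4 in those labelled WT TN. Scaled to library size, that was 11.2 CPM in WT MP replicate 2 and 6.59 CPM in the library labelled mCre TN replicate 2, within the 1.06 to 13.2 CPM of the other 6. The ratio of the 5p to the 3p strand was 3343 in WT MP replicate 2 and 7675 in the library labelled mCre TN replicate 2. In the other 6 libraries it lay between 1060.1 and 3439, and the value of 3439 rests on 2 counts of the 3p strand.

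In MP, miR-26b-5p was lower in both mCre libraries than in both WT libraries, at 6552 ± 2826 CPM against 26376 ± 16171 CPM (SD, n = 2 each). Of all tested miRNAs, 37.4% were lower in mCre there without overlap. The log2 change of miR-26b-5p was -2.01 ± 0.84 (adjusted p = 0.411, edgeR). It was -1.998 ± 0.48 (adjusted p = 0.0153, edgeR) without both TN replicate 2 libraries, which enter only through the filter, the scaling and the shared estimate of the spread, and where 14.5% of 433 passed. The adjusted p over 15 alternatives ran from 0.0153 to 0.933, and 1 passed. With 1 library left out the log2 change ran from -2.64 without WT MP replicate 1 to -1.19 without WT MP replicate 2. In TN the order was the other way, at 31704 ± 28523 CPM in mCre and 9886 ± 5890 CPM in WT, with overlap (1.68 ± 0.83, adjusted p = 0.957), and the log2 change was -0.30 without both TN replicate 2 libraries. The difference between the MP and TN genotype effects was -3.69 ± 1.19 (adjusted p = 0.301, edgeR), rank 10 by p of 382. It was -3.56 with DESeq2 (adjusted p = 0.0489), where 4.19% passed, and -3.83 without the filter (adjusted p = 0.00732, edgeR), where 1.14% passed. With both TN replicate 2 libraries left out it was -1.70 ± 0.81 and did not pass. Its adjusted p over 15 alternatives ran from 0.00732 to 0.695.

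Between subsets, miR-26b-5p was lower in MP in mCre cells without overlap, as were 35.6% of all tested miRNAs. The log2 change of miR-26b-5p was -2.27 ± 0.85 (adjusted p = 0.218, edgeR). DESeq2 gave -2.33 (adjusted p = 0.0421), where 11.5% of all tested miRNAs passed, and edgeR without the filter gave -2.42 (adjusted p = 0.0253), where 2.74% of 877 passed. Over 15 alternatives the adjusted p ran from 0.0253 to 0.650. Without both TN replicate 2 libraries the log2 change was -0.93 and did not pass. In WT cells miR-26b-5p was higher in MP without overlap, as were 26.2% of all tested miRNAs. By share of counts, without TMM factors, it overlapped, with 1.735% in WT TN replicate 1 and 1.678% in WT MP replicate 1. The log2 change of miR-26b-5p in WT was 1.42 ± 0.83 (adjusted p = 0.669, edgeR), a larger difference than the 1.21 of miR-139-5p there. It was 0.77 ± 0.59 without both TN replicate 2 libraries. With 1 library left out it ran from 0.53 without WT MP replicate 2 to 2.22 without WT TN replicate 1, and was 0.80 without the library labelled WT TN replicate 2.

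miR-101a-3p and miR-101b-3p, transcribed from different chromosomes, had close profiles. miR-101a-3p measured 545 and 732 CPM in mCre MP, 1355 and 1133 CPM in WT MP, 813 and 928 CPM in the libraries labelled mCre TN, and 4925.5 and 487 CPM in those labelled WT TN. miR-101b-3p measured 887 and 1249.6 CPM in mCre MP, 1959.5 and 1765 CPM in WT MP, 1716 and 1909 CPM in the libraries labelled mCre TN, and 5931 and 918 CPM in those labelled WT TN. For both, WT TN replicate 1 was the highest library, and the next highest was WT MP replicate 1 at 1355 and 1959.5 CPM. The lowest were the library labelled WT TN replicate 2 for miR-101a-3p and mCre MP replicate 1 for miR-101b-3p. Their profiles differed by 0.25 (root-mean-square difference of centred log2 CPM), the least of the 10 pairs of members; miR-26a-5p and miR-26b-5p differed by 0.81, and miR-26b-5p and miR-139-5p, the most unlike pair, by 2.24.

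Between subsets the miR-101 levels overlapped. miR-101a-3p averaged 941 ± 369 CPM in MP and 1788 ± 2099.8 CPM in TN, with a log2 change of -0.78 ± 0.64 (adjusted p = 0.717, edgeR), 0.15 without WT TN replicate 1 and -1.37 without both TN replicate 2 libraries. miR-101b-3p averaged 1465 ± 488 CPM in MP and 2618 ± 2249.5 CPM in TN (SD, n = 4 each for both forms), a log2 change of -0.82 ± 0.55 (adjusted p = 0.642), and -0.17 without WT TN replicate 1. When both TN replicate 2 libraries were left out, WT TN replicate 1 alone stood for WT TN, and the change of miR-101b-3p was -1.33 ± 0.37 (adjusted p = 0.0347, edgeR), past the threshold as for 11.3% of 433; over its 15 alternatives the adjusted p ran from 0.0347 to 0.972. In WT cells alone the log2 changes were -1.12 ± 0.91 for miR-101a-3p (adjusted p = 0.796) and -0.88 ± 0.79 for miR-101b-3p (adjusted p = 0.802), and they were 1.38 and 1.05 without WT TN replicate 1. For miR-101b-3p the change was -1.78 ± 0.47 without both TN replicate 2 libraries (adjusted p = 0.0503, edgeR). For miR-101a-3p in WT the log2 change was -2.10 ± 0.48 (adjusted p = 0.0218, edgeR) without both TN replicate 2 libraries, where 3.23% of 433 passed; its adjusted p over 15 alternatives ran from 0.0218 to 1.0, and no other passed.

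In mCre cells both miR-101 forms were lower in MP than in TN without overlap, as were 35.6% of all tested miRNAs. The log2 changes were -0.45 ± 0.90 for miR-101a-3p (adjusted p = 0.777) and -0.76 ± 0.79 for miR-101b-3p (adjusted p = 0.533, edgeR), each smaller than its SE. Without both TN replicate 2 libraries they were -0.48 ± 0.49 and -0.82 ± 0.48. Between genotypes in TN, both were lower in mCre on average with overlap, at -1.64 ± 0.93 and -0.92 ± 0.79 (adjusted p = 0.957 for both), and the log2 changes were 0.87 and 1.01 without WT TN replicate 1, but -2.61 ± 0.61 and -1.80 ± 0.59 without both TN replicate 2 libraries. The interaction values were 0.67 ± 1.28 for miR-101a-3p (adjusted p = 0.848) and 0.12 ± 1.11 for miR-101b-3p (adjusted p = 0.967), and without both TN replicate 2 libraries they were 1.61 ± 0.71 and 0.97 ± 0.70.

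Within each library, miR-101b-3p was counted more often than miR-101a-3p. The ratio of miR-101a-3p to miR-101b-3p was 0.614 and 0.586 in mCre MP, 0.692 and 0.642 in WT MP, 0.474 and 0.486 in the libraries labelled mCre TN, and 0.831 and 0.531 in those labelled WT TN. It therefore varied 1.75-fold while the levels varied 10.1-fold and 6.69-fold. The partner strands miR-101b-5p and miR-101a-5p had 0 and 1 counts over all libraries, so no strand ratio was formed for this family.

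The ratio of miR-26a-5p to miR-26b-5p was 2.57 and 2.02 in mCre MP, 1.91 and 0.780 in WT MP, 2.22 and 0.529 in the libraries labelled mCre TN, and 2.03 and 2.73 in those labelled WT TN. miR-26a-5p was the more abundant form in 6 libraries, and miR-26b-5p in WT MP replicate 2 and in the library labelled mCre TN replicate 2. The ratio of miR-139-5p to miR-139-3p was 3.61 and 4.11 in mCre MP, 9.14 and 5.75 in WT MP, 6.01 and 1.40 in the libraries labelled mCre TN, and 8.37 and 3.90 in those labelled WT TN. On average it was lower in mCre, by a log2 difference of -0.94, with overlap (exact permutation p = 0.143, two-sided, n = 4 each).

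Each of 5 ratios was compared between MP and TN and between mCre and WT, 10 exact permutation tests in all, in which the smallest p that 4 against 4 libraries allow is 0.0286. None passed. The smallest p, 0.114, was for miR-101a-3p to miR-101b-3p between mCre and WT (adjusted p = 0.714), where the mean log2 ratio was -0.90 ± 0.19 in mCre and -0.59 ± 0.27 in WT (SD, n = 4 each). Between MP and TN the log2 ratio of miR-139-5p to its partner differed by 0.37 (exact permutation p = 0.600, adjusted p = 0.964), and without both TN replicate 2 libraries by -0.43.

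**Figure D3:**
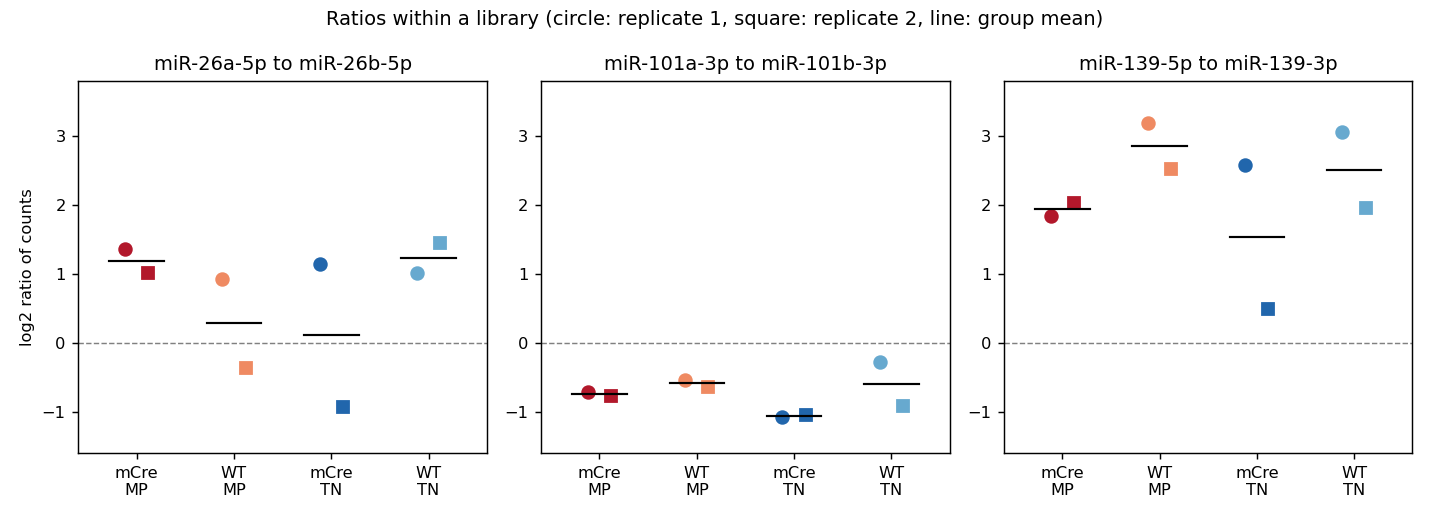
Log2 ratios of pairs of miRNAs within each library, with the groups in the order mCre MP, WT MP, mCre TN and WT TN and 1 point per library. The log2 ratio of miR-26a-5p to miR-26b-5p drops below 0 in 2 libraries. These are WT MP replicate 2 (-0.36, a ratio of 0.780) and the library labelled mCre TN replicate 2 (-0.92, a ratio of 0.529).

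In mCre MP against WT MP, all 5 members had log2 changes below 0, where 42.15% of all tested miRNAs had changes above 0. miR-26a-5p measured 14500.1 ± 3941 CPM in mCre and 29002 ± 696 CPM in WT (SD, n = 2 each), a log2 change of -1.0 ± 0.44 (adjusted p = 0.411, edgeR). miR-101a-3p measured 638 ± 133 CPM in mCre and 1244 ± 157 CPM in WT (-0.96 ± 0.91, adjusted p = 0.637), and miR-101b-3p 1068 ± 256 CPM in mCre and 1862 ± 137 CPM in WT (-0.80 ± 0.79, adjusted p = 0.645). With miR-26b-5p, 4 members were lower in mCre without overlap, in a comparison in which 37.4% of all tested miRNAs were. The median log2 change was -0.96 over the members and -0.23 over all tested miRNAs. No tested miRNA passed with edgeR or DESeq2; 41 (10.7%) in edgeR and 67 in DESeq2 had an unadjusted p under 0.05.

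The counts of members can be read against those of all tested miRNAs. For MP against TN over both genotypes 1 member was higher without overlap, where 6.81% of all tested miRNAs were, and the other 4 overlapped. The median log2 change was -0.43 over the members, against -0.04 over all tested miRNAs. In WT cells, 3 members were higher in MP without overlap, where 26.2% of all tested miRNAs were, and none passed with edgeR. For miR-26a-5p and miR-26b-5p this order needed TMM scaling, since by share of counts WT MP and WT TN overlapped. Of all tested miRNAs 0 passed (0.0%) in WT with edgeR and 31 (8.12%) had an unadjusted p under 0.05, while DESeq2 passed 12 (3.14%). In mCre cells, 4 members were lower and 1 was higher in MP without overlap, where 35.6% and 29.6% of all tested miRNAs were. Of all tested miRNAs 0 passed there with edgeR (82, or 21.5%, with an unadjusted p under 0.05), and DESeq2 passed 44. The MP against TN comparisons share libraries with each other and with the genotype comparisons, so these counts are not independent. For the difference of the genotype effects, 0 of 382 passed with edgeR and 16 (4.19%) with DESeq2; in edgeR 54 (14.1%) had an unadjusted p under 0.05.

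**Figure D4:**
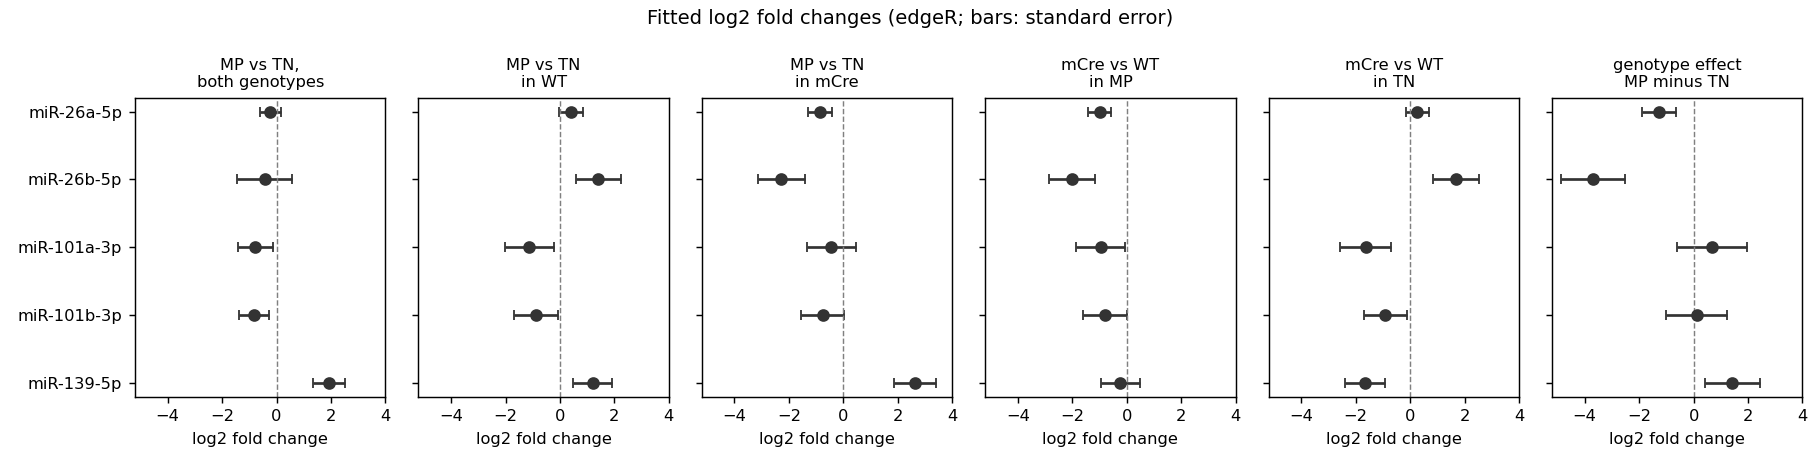
Log2 fold changes of the 5 members with their SE in the comparisons of subsets and genotypes, from the edgeR fits. miR-139-5p lies above 0 for MP over TN in each comparison of subsets, and all 5 members lie below 0 for mCre over WT in MP. In that last comparison 42.15% of all tested miRNAs lie above 0.

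Other miRNAs known to be abundant in resting lymphocytes, a list of 12 that holds miR-150-5p, miR-342-3p, both arms of miR-142a, miR-16-5p and members of the miR-30, miR-15 and let-7 families, gave 0 passes in the 6 comparisons with edgeR and all 8 libraries. For MP against TN over both genotypes 5 of them were above 0 and 7 below, all 12 with overlap, and their median log2 change was -0.22. For mCre against WT in MP, 10 of the 12 were below 0, with a median of -1.29, beside -0.96 over the 5 members. Of the 12, 9 were lower and 2 (let-7a-5p and let-7f-5p) were higher in mCre without overlap, where 37.4% and 27.2% of all tested miRNAs were. In mCre cells, 8 of the 12 were lower in MP than in TN without overlap, where 35.6% of all tested miRNAs were. The same 2 let-7 forms were higher in MP without overlap there, where 29.6% of all tested miRNAs were. The median of the 12 was -0.91, beside -0.76 over the members. Of 12 miRNAs known from T cell activation, 11 were tested. For MP against TN over both genotypes 2 of them passed, both higher in MP, where 2.36% of all tested miRNAs passed. miR-146a-5p, a feedback repressor of NF-kB signalling, stood at 2.61 (adjusted p = 0.0137, edgeR). miR-21a-5p, which is induced in activated T cells, stood at 1.87 (adjusted p = 0.0392, edgeR). In that list, chosen with earlier results of these data known, 8 were above 0 and 3 below over both genotypes, with a median of 1.27. Without overlap, 6 of the 11 were higher in MP and 0 lower, where 6.81% and 4.45% of all tested miRNAs were. The log2 change of miR-139-5p over both genotypes, 1.92, lay between those of miR-146a-5p and miR-21a-5p. For mCre against WT in MP, 8 of the 11 were below 0 and 3 above, with a median of -0.27. Of the 11, 6 were lower and 1 was higher in mCre without overlap, where 37.4% and 27.2% of all tested miRNAs were.

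By the likeness measure used above, the other members had these nearest profiles among 374 miRNAs. miR-26a-5p was most like miR-24-3p (0.15), miR-200c-3p (0.23) and miR-28a-5p (0.24), against a median of 0.96. miR-101a-3p was most like miR-30e-5p (0.39), miR-140-3p (0.41) and miR-340-5p (0.41), and miR-101b-3p most like miR-140-3p (0.27), miR-378b (0.36) and miR-142a-3p (0.37). miR-139-5p had no close match, with miR-7667-5p (0.65), miR-224-5p (0.66) and miR-130b-5p (0.70) as the nearest and a median of 1.61.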

How the data were processed

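The authors deposited 1 table of expected counts with 2128 rows and 1978 mature names, 85 of them in several rows. Per the submitters' processing notes the build was mm10; for the aligner, the counting tool and the annotation of miRNAs, no statement was found in the sources used here. Per the labels' protocols, total RNA was extracted with Trizol and made into ligation-based libraries. Not all values are whole (tolerance 0.011), and near-identical forms may share reads: 12 of 16 values of miR-26a-5p, 4 of 8 of miR-26b-5p and of miR-101a-3p, 1 of 8 of miR-101b-3p and 0 of 8 of miR-139-5p were not whole.

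Rows of a name were summed and rounded. Totals were 1936600 to 5230975 counts. edgeR 4.0.16 in R 4.3.3 (filterByExpr with minimum count 10 and minimum total 15, TMM, robust quasi-likelihood F test, Benjamini-Hochberg adjustment, adjusted p under 0.05) was run on 382 miRNAs, with an additive fit of subset and genotype (5 residual degrees of freedom) and a fit of the 4 groups (4 residual degrees of freedom; common dispersion 0.356). The edgeR fits were tested on simulated data. Recovery of set changes was required only at a dispersion far below 0.356, so that test does not show the power at the spread of these data. DESeq2 1.42.0, other scaling, no filter, a replicate block, the highest row of each name, a ratio pseudocount of 5 and each library left out were alternatives. Each SE of an edgeR log2 change was derived as the absolute log2 change divided by the square root of its F statistic. Ratios were tested on log2 counts plus 0.5 with exact permutation tests (SciPy 1.17.1). Profile likeness used log2 CPM with a prior count of 2. Sequences are from RefSeq, which matched 1679 names, among them the 5 members and their 6 partner strands.

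The named miRNAs are the members, their partner strands, miR-101c, the 3 nearest profiles of each member and 2 context lists. The members and lists were chosen with earlier results of these data known. Whether replicate libraries are of different mice is not stated in the labels; the p-values therefore cover only library-to-library spread, possibly technical. Replicates differed far more than counting noise allows (chi-square 260.1 to 1638 per degree of freedom). Shares rest on at least 973 counts for miR-139-5p in each library, and intervals cover counting error only.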

Additional observations from a re-analysis of the deposited data

Results flagged for a closer look

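Groups of 4 libraries were searched for a highest or lowest library that stands far from the other 3. In 52 groups of values, 6 were found. Chance gives about 1 in 20 for independent values drawn alike from a normal distribution, a shape that was not checked for the CPM. Each group mixed both genotypes or both subsets, and groups shared libraries, so 6 of 52 cannot be set against that rate. WT TN replicate 1 had 4925.5 CPM of miR-101a-3p, far above the other TN libraries. The library labelled WT TN replicate 2 had 966 CPM of miR-139-3p, far above the other TN libraries, and 15626 CPM of miR-26a-5p, far below the other WT libraries. The library labelled mCre TN replicate 2 had 51872 CPM of miR-26b-5p, far above the other mCre libraries, and a log2 ratio of miR-26a-5p to miR-26b-5p of -0.92, far below them. mCre TN replicate 1 had a log2 ratio of miR-26a-5p to its partner strands of 10.67, below the other mCre libraries. Of the 6, 4 lie in the 2 TN replicate 2 libraries, whose miR-29a-3p runs against the direction in MP; the part of that in these values was not tested.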

How the results depend on the processing

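Over both genotypes 9 miRNAs passed for MP against TN (5 higher, 4 lower; 4 and 6 with RLE factors, 4 and 5 with total counts), none of them a member. That count was 19 without the filter, 28 with DESeq2, 49 without both TN replicate 2 libraries (an alternative chosen after the data were seen) and 0 to 41 with 1 library left out: 41 without WT TN replicate 2, 2 without mCre MP replicate 1 or mCre TN replicate 2, 1 without mCre TN replicate 1 or WT TN replicate 1, and 0 without mCre MP replicate 2 or either WT MP library. In WT the counts were 6, 12, 14 and 0 to 6 (6 without WT TN replicate 1) under the same settings, against 0. In mCre they were 24, 44, 30 and 0 to 56 (56 without WT TN replicate 1, 41 without WT TN replicate 2, 2 without mCre TN replicate 1), against 0. For mCre against WT, MP gave 63 without both TN replicate 2 libraries and 0 with any 1 library left out, and TN gave 1 without the filter. For the difference of effects the counts were 10 without the filter, 16 with DESeq2 and 0 to 68 with 1 library left out (68 without WT TN replicate 1). Same-numbered libraries did not deviate together in every pair of groups (correlations -0.32 to 0.41), so the numbers were not taken as pairs; with a replicate block 2 passed over both genotypes and 0 in the other comparisons. With the mCre TN numbers crossed, a block run only for mCre against WT in TN, 0 passed there. Scaling by total counts moved the median of all miRNAs from -0.04 to -0.23 over both genotypes, from -0.18 to -0.49 in mCre and from -0.23 to -0.48 for mCre against WT in MP, and RLE factors moved it from 0.05 to -0.13 in WT; all 30 member directions held under both. Without both TN replicate 2 libraries these turned sign: miR-26a-5p in WT (-0.088) and for mCre against WT in TN (-0.17), miR-26b-5p there (-0.30), and the log2 ratios of miR-26a-5p to miR-26b-5p (-0.34 for MP against TN, 0.64 for mCre against WT), miR-26b-5p to miR-26b-3p (0.86) and miR-139-5p to miR-139-3p (-0.43) for MP against TN, and miR-26a-5p to its partners (-0.017) for mCre against WT. The miR-101b-3p difference of effects was -0.043 without the filter and -0.026 with the block. With 1 library left out, log2 changes that crossed 0 ran from -1.25 to 0.31 (miR-26b-5p) and -1.15 to 0.15 (miR-101a-3p) over both genotypes; -0.062 to 0.92 (miR-26a-5p), -2.07 to 1.38 (miR-101a-3p) and -1.76 to 1.05 (miR-101b-3p) in WT; -0.11 to 0.79, -2.51 to 0.87 and -1.72 to 1.01 for the same 3 in mCre against WT TN; and -1.93 to 1.59 (miR-101a-3p) and -1.92 to 0.96 (miR-101b-3p) for the difference of effects. The ratios ran from -0.47 to 0.43 (miR-26a-5p to miR-26b-5p), -0.50 to 0.18 (miR-26a-5p to its partners), -0.40 to 0.56 (miR-26b-5p to miR-26b-3p) and -0.14 to 0.72 (miR-139-5p to miR-139-3p) for MP against TN, and from -0.48 to 0.42 for miR-26a-5p to miR-26b-5p in mCre against WT. The cause of these shifts was not tested. With 2 libraries a group, a lone library was assumed to vary like the others.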
